A study of Mus musculus with 12 samples.

Results

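Ribosomal protein genes and the processed copies named after them were examined in the liver of control Med13fl/fl mice and of mice labelled MED13-LKO. A member was Rpsa or any row whose mouse symbol begins with Rpl, Rps, Rplp or Rpsp followed by a digit, without the kinases of the Rps6k family and Rps19bp1. Of the 16346 rows of the table, 142 met the rule, and they were divided into 89 genes and 53 copies, the copies being the symbols that contain -ps. The copies belonged to 31 of the genes. In the gene annotation 84 of the genes are protein coding and 5 are pseudogenes despite a gene name (Rpl37rt, Rpl6l, Rps3a2, Rps3a3 and Rps4l), while 51 of the copies are pseudogenes and 2 (Rpl10-ps3 and Rpl9-ps6) are protein coding. A mean normalized count of at least 10 over the 12 libraries was reached by 86 genes and 13 copies, and only these were tested. The other 3 genes and 40 copies stayed under that level.

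RNA-seq libraries were made from whole liver of 12 mice, 1 per mouse, with 2 mice in each of 6 groups. Control mice were homozygous for the floxed allele Med13fl/fl, and MED13-LKO mice carry the same floxed allele with Alb-Cre, a recombinase driven by the albumin promoter in hepatocytes. All were labelled C57BL6J and were 12 weeks old. Fasted mice had gone 16 h overnight without food. Sucrose and fructose mice, titled as refed, were given chow for 4 h after an overnight fast, with drinking water that held 30% of the sugar. The values are normalized counts, that is, counts estimated per transcript and scaled between libraries, so no read depth is stated for them. They summed to 21062211 to 24152885 per control library and to 17309215 to 18738563 per MED13-LKO-labelled library. Med13 RNA was not called lower in MED13-LKO-labelled liver. Its normalized counts ranged from 578 to 796 in control and from 646 to 1055 in MED13-LKO-labelled liver, with a log2 fold change of 0.22 (SE 0.115, adjusted p = 0.201 in limma), so the term MED13-LKO-labelled is used throughout. The count covers the whole gene and not its floxed part alone, and the protein was not analysed here, so the count does not by itself test the deletion. Albumin and the other hepatocyte markers in the table were at high levels in every library. Fewer cells of a type and less RNA per cell cannot be told apart in such whole-tissue libraries.

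The ribosome is built of a small and a large subunit, whose proteins carry the prefixes Rps and Rpl, most of which are present in equal number. In mammals nearly every one of them comes from a single active gene, but their abundant messengers have been copied back into the genome many times as processed pseudogenes without introns. Many ribosomal protein messengers begin with a tract of pyrimidines, the 5′ terminal oligopyrimidine motif, through which nutrient signalling governs their translation. The liver makes ribosomes at a rate that follows feeding.

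Because a copy can differ from its gene in a few bases or in none, it matters which sequence a read can be told apart by. The following stretches of coding sequence come from GENCODE M21 on GRCm38, the build that the submitters' processing notes name as mm10, and set a gene beside the copy whose values are described next to it below. Capitals mark the bases that differ within the stretch. Positions are counted from the first base of the start codon. The stretch of Rps26, on the minus strand of chromosome 10, covers coding positions 1 to 120, and that of Rps26-ps1 lies at chr8:107439443-107439562 on the minus strand.
Rps26: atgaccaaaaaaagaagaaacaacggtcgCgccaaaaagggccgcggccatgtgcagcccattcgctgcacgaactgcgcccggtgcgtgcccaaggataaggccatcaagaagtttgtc
Rps26-ps1: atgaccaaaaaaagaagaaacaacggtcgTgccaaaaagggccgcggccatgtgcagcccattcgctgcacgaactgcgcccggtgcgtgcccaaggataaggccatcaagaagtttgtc
Over the 348 bases of the Rps26 coding sequence the copy differed at 2 positions. The stretch of Rpl34, on the minus strand of chromosome 3, covers coding positions 13 to 132, and that of Rpl34-ps1 lies at chr6:71124622-71124741 on the plus strand.
Rpl34: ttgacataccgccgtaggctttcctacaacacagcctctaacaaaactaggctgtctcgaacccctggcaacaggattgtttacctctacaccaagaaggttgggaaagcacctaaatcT
Rpl34-ps1: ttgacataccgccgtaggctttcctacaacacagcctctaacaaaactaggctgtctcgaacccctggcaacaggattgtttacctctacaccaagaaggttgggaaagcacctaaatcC
Rpl34-ps1 differed at 2 of 354 coding positions. The stretch of Rps3a1, also on the minus strand of chromosome 3, covers coding positions 526 to 645, and that of Rps3a2 lies at chr14:88123164-88123283 on the minus strand.
Rps3a1: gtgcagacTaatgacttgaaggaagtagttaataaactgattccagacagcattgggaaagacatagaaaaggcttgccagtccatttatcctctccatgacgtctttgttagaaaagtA
Rps3a2: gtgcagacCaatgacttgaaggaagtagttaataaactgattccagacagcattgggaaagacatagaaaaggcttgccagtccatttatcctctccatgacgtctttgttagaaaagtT
Rps3a2 differed at 4 of 792 aligned positions, and Rps3a3 at 9 of 795. The stretch of Rpl30, on the minus strand of chromosome 15, covers coding positions 1 to 120, and that of Gm12191, a processed copy of Rpl30 that the name rule does not reach, lies at chr11:49678938-49679057 on the minus strand.
Rpl30: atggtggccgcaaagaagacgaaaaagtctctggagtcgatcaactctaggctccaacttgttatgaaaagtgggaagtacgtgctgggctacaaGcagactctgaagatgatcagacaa
Gm12191: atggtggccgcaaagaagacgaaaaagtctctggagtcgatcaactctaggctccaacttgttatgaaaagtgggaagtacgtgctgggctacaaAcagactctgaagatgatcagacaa
Gm12191 differed at 1 of 348 positions. By contrast, Rps16-ps2, which lies on the minus strand of chromosome 5, carried no difference from Rps16 over 441 coding positions, so a single run, at chr5:129128398-129128517, stands for both.
Rps16 and Rps16-ps2: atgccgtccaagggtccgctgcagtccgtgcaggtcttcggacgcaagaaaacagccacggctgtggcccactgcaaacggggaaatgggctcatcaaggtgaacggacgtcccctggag

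The first 4 pairs are those in which the value of a gene was far lower and that of a copy far higher in MED13-LKO-labelled liver. Rps26-ps1 is annotated as a transcribed processed pseudogene of 449 bases at chr8:107439131-107439579, within the bounds of Wwp2 on the other strand. Rpl34-ps1 is a processed pseudogene of 354 bases at chr6:71124610-71124963, Rps3a2 one of 792 bases at chr14:88123017-88123808, and neither overlaps another annotated gene. Rps3a3, at chr13:108670603-108671397, lies within the bounds of Pde4d, and Gm12191, at chr11:49678710-49679057, within those of Cnot6, both on the same strand as these genes. Reads of Rps3a3 and Gm12191 thus cannot be separated by orientation from those of the gene around them. For Rps26-ps1 within Wwp2 this would need libraries that keep the strand, which is not stated.

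Rps26, a protein of the small subunit, had a small part of its control level in MED13-LKO-labelled liver. In control liver its normalized counts were 3176 and 3263 (fasted), 2908 and 3145 (sucrose) and 3265 and 2629 (fructose). In MED13-LKO-labelled liver they were 50.7 and 66.2, 63.0 and 51.4, and 54.3 and 69.9. The genotypes did not overlap in any diet, and the log2 fold change averaged over the diets was -5.68 (SE 0.101, adjusted p = 1.008e-09). Rps26-ps1 had the opposite pattern. Its control values were 0 and 7.19 (fasted), 3.03 and 0 (sucrose) and 1.11 and 0 (fructose), against 1137 and 1258, 1220 and 1272, and 1272 and 1322 in MED13-LKO-labelled liver (log2 fold change 9.26, on a scale where a value near 0 makes the size depend on the pseudocount). With a mean of 1.89 in control, it reached the level for testing through the MED13-LKO-labelled libraries alone, so no p-value is given. The copy thus held 0% to 0.22% of the sum of both rows in control and 95.0% to 96.1% in MED13-LKO-labelled liver. The sum did not stay level. It ranged from 2629 to 3270 in control and from 1187 to 1392 in MED13-LKO-labelled liver, a log2 fold change of -1.23 (SE 0.0609, adjusted p = 1.395e-06).

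Rps3a1, another protein of the small subunit, stood beside a pair of rows that carry gene names but are annotated as pseudogenes. The control values of Rps3a1 were 8455 and 8710 (fasted), 7217 and 8178 (sucrose) and 8648 and 7135 (fructose). The corresponding values in MED13-LKO-labelled liver were 756 and 916, 793 and 756, and 758 and 768 (log2 fold change -3.35, SE 0.0669, adjusted p = 1.602e-09). All of them lay far under the lowest control value. Rps3a2 went from 15.7 and 21.7, 10.1 and 2.07, and 6.63 and 4.49 in control to 3275 and 3616, 3000 and 3344, and 3353 and 3222, and Rps3a3 from 5.61 to 10.8 in control to 369 to 421. These rows were the only ribosomal protein genes called higher when the diets were averaged, with log2 fold changes of 8.51 for Rps3a2 (SE 0.264, adjusted p = 3.026e-08) and 5.56 for Rps3a3. Rps3a3, like Rps26-ps1 and Rpl34-ps1, reached the level for testing through the MED13-LKO-labelled libraries alone (mean of 7.57 in control), so no p-value is given for it. Together Rps3a2 and Rps3a3 held 0.101% to 0.372% of the sum with Rps3a1 in control and 81.0% to 83.2% in MED13-LKO-labelled liver. The sum of these rows ranged from 7150 to 8742 and from 4178 to 4953.

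Rpl34, a protein of the large subunit, had control values of 3009 and 3489 (fasted), 2721 and 3131 (sucrose) and 3066 and 2479 (fructose). MED13-LKO-labelled liver had 283 and 275, 238 and 288, and 297 and 280 (log2 fold change -3.42, SE 0.0779, adjusted p = 2.372e-09). Rpl34-ps1 was between 2.21 and 5.58 in control and reached 1133 and 1277 (fasted), 909 and 1171 (sucrose) and 1129 and 1163 (fructose) in MED13-LKO-labelled liver, with a log2 fold change of 7.70. No p-value is given, since it passed the filter through these libraries alone (mean of 4.56 in control). The share of the named copies rose from 0.0721% to 0.269% in control to 79.2% to 82.3%. The summed family was lower with a log2 fold change of -1.08 (SE 0.0812, adjusted p = 1.689e-05).

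Rpl30, which also belongs to the large subunit, was lower to a lesser extent. Its control values were 2660 and 2875 (fasted), 2255 and 2575 (sucrose) and 2562 and 2063 (fructose), against 792 and 866, 742 and 906, and 898 and 834 in MED13-LKO-labelled liver (log2 fold change -1.57, SE 0.0756, adjusted p = 9.541e-07). The groups did not overlap. The copy named after it, Rpl30-ps9, was at 0 in 6 of the 12 libraries and reached 140 in a single MED13-LKO-labelled library. It reached the level for testing only through the fructose mice labelled MED13-LKO, with a mean of 6.65 in the other libraries. Rpl30-ps9 is therefore given by its values alone. Gm12191, singled out after its values were seen and so given by its values alone, was 4.42 in 1 control library, 0 in the other control libraries and 642 to 897 in MED13-LKO-labelled liver. With this row and other rows of shared sequence added, the Rpl30 sum had a log2 fold change of -0.59 (SE 0.0747, adjusted p = 0.0004286), in place of -1.52 (SE 0.0794, adjusted p = 1.735e-06) with named copies alone.

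**Figure D1:**
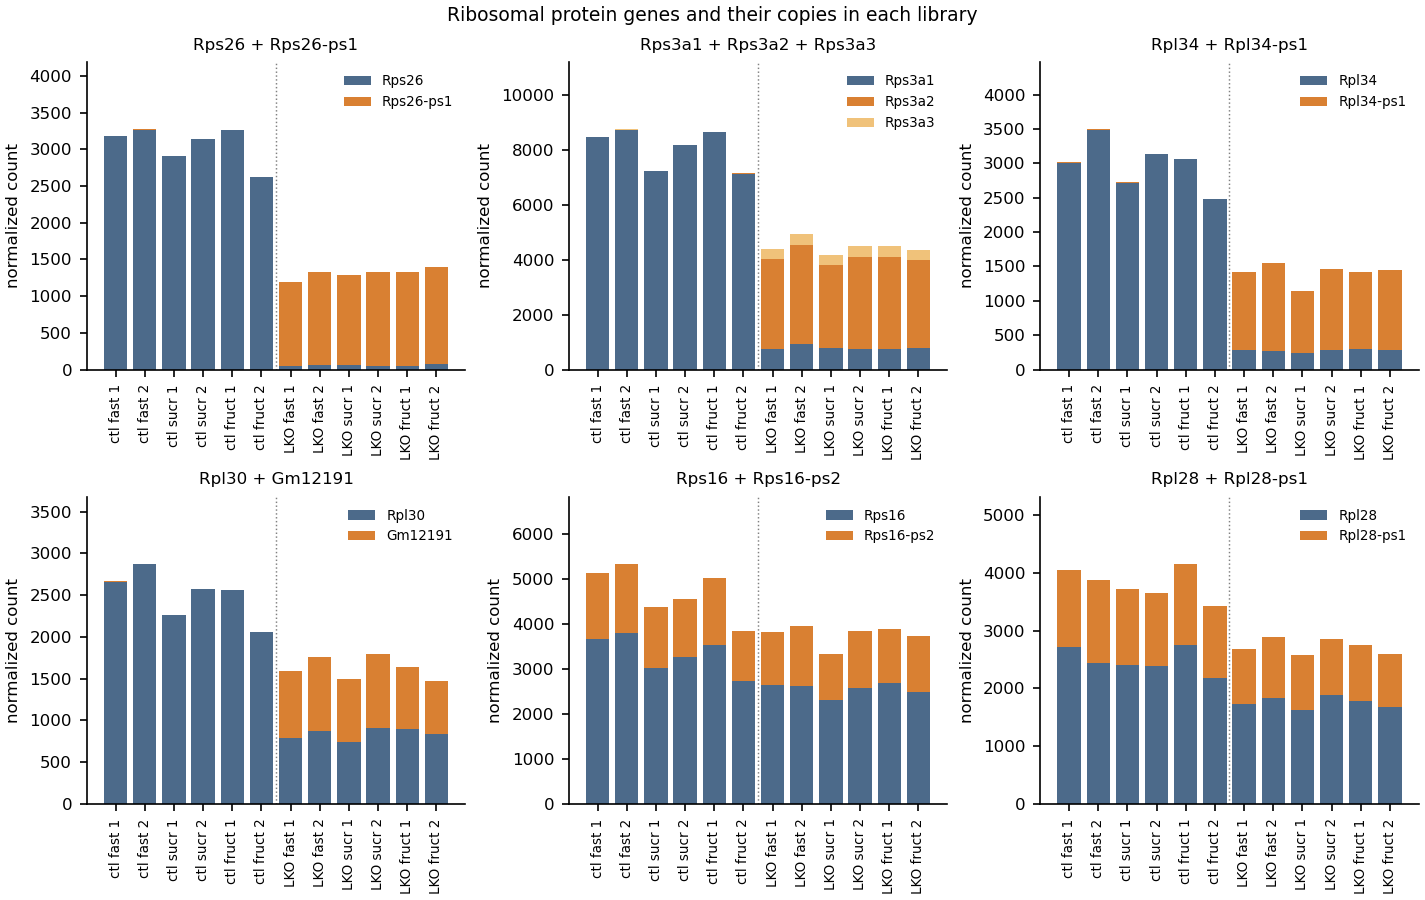
Normalized counts (vertical axes, from 0) of a gene, in blue, stacked with its copies, in orange, in each of the 12 libraries, control to the left of the dotted line and those labelled MED13-LKO (LKO) to the right. Copies hold most of Rps26, Rps3a1 and Rpl34 to the right of the line only, whereas Rps16-ps2 and Rpl28-ps1 hold a like share on both sides. The whole bar is lower to the right for the first 4 genes and for Rpl28, and the ranges overlap for Rps16.

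Identity between copy and gene was measured for every copy that was tested. Rpl28-ps1, Rpl15-ps3, Rpl10-ps3, Rpl10a-ps1, Rpl27-ps3 and Rps16-ps2 had 0 mismatches to the coding sequence of their gene, and none of these shifted from near 0 to most of its family. Rpl10-ps3 held 50.6% to 60.0% of the Rpl10 family in control and 51.5% to 60.4% in MED13-LKO-labelled liver. Rpl28-ps1 held 33.1% to 36.9% and 34.0% to 36.6% of the Rpl28 family. The copies of Rps16 held 28.5% to 30.9% and 30.8% to 33.9%. Copies with differences were not all alike. Rps26-ps1 and Rpl34-ps1, with 2 each, changed their share as given above, but Rpl17-ps9 with 2 and Rps2-ps10 with 5 were not called (adjusted p = 0.173 and 0.29 in limma). Rpl31-ps8, not called either (adjusted p = 0.0511), had 4 mismatches to the Rpl31 transcript used for the alignment. Yet 100% of its stretches of 31 bases occur in Rpl31 transcripts, so it is no example of a copy that can be told apart. Rps12-ps24, with 7 mismatches, had low values of 0 to 16.8 in control and 5.66 to 49.9 in MED13-LKO-labelled liver, which overlap. It reached the level for testing only through the sucrose mice labelled MED13-LKO, with a mean of 7.70 in the other libraries, and is given by its values alone. Of the 13 copies tested, 4 were called lower, where 13.2% of all genes tested were. These copies were Rpl28-ps1 (log2 fold change -0.46), Rpl15-ps3 (-0.34), Rpl10-ps3 (-0.25) and Rpl10a-ps1 (-0.23), each with the sign of its gene. With equal totals Rpl28-ps1 alone of them was called, where 3.27% of all genes tested were called lower. The signs of Rpl10-ps3 and Rpl10a-ps1 then turned. The calls of Rpl15-ps3, Rpl10-ps3 and Rpl10a-ps1 were kept in 9, 8 and 5 of the 12 fits that left out 1 mouse. For copies without a mismatch, and for Rpl31-ps8, the division between gene and copy is uncertain, since no read within the shared stretch can decide it.

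**Figure D2:**
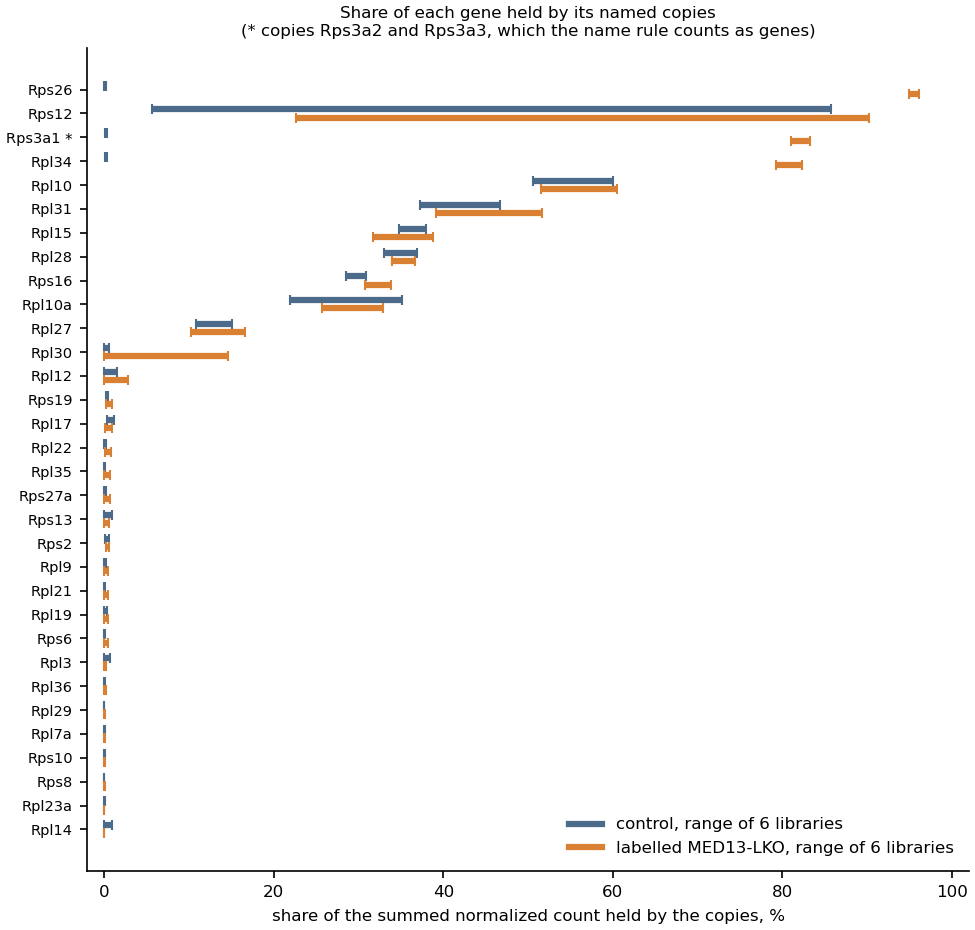
Share of the summed normalized count of each gene that its named copies held (for Rps3a1, marked with an asterisk, the share of Rps3a2 and Rps3a3, which are counted as genes elsewhere), in percent, drawn as the range over 6 control libraries in blue and 6 MED13-LKO-labelled libraries in orange. Rps26, Rps3a1 and Rpl34 go from under 1% to over 79%, while the ranges of the other families overlap.

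Nnt, which encodes the mitochondrial nicotinamide nucleotide transhydrogenase and is known to carry a deletion of several exons in C57BL/6J mice, was read beside these shares after they had been seen. It was at 529 to 1004 in control and at 2617 to 3687 in MED13-LKO-labelled liver (log2 fold change 2.12, SE 0.135, adjusted p = 5.69e-06), without overlap, although both genotypes are labelled with the same strain. Whether the genetic background of the mice has a part in the shares of the copies was not tested.

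Leaving these 4 families aside, most ribosomal protein genes were lower in MED13-LKO-labelled liver by a similar and much smaller amount. Averaged over the diets, 70 of the other 80 genes tested were called lower and 0 higher, where 13.2% of all 12366 genes tested were called lower and 12.1% higher. Their log2 fold changes ran from -0.56 to 0.22 with a median of -0.33, against 0.01 over all genes tested. The values of 37 of the 80 genes in all 6 MED13-LKO-labelled libraries were under those in all 6 control libraries, which held for 4.93% of all genes tested, and those of 0 were above, which held for 3.92%. With the 4 families included, 74 of 86 genes were called lower and 2 higher, the latter being Rps3a2 and Rps3a3, and the counts were again 74 and 2 among 86 sums of genes with their named copies.

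The size of this difference rests on how the libraries are scaled. When the libraries were given equal totals in place of the deposited scaling, the median of all genes moved from 0.01 to 0.32, and that of the ribosomal protein genes moved from -0.33 to -0.02, so that the distance between both stayed near one value while the calls changed. There were then 8 of 86 genes lower and 4 higher, where 3.27% of all genes tested were called lower and 57.5% higher. The lower ones were Rps26, Rpl34, Rps3a1, Rpl30, Rps7, Rps2, Rpl28 and Rpl31, and the higher ones were Rps3a2, Rps3a3, Rps4l and Rpl7l1. All members together made up 1.31% to 1.52% of the normalized counts of a control library and 1.29% to 1.435% of those of a MED13-LKO-labelled one, and these ranges overlap. The markers of hepatocytes moved with the total, with sums of 2145959 to 2804382 in control and 1613227 to 1957120 in MED13-LKO-labelled liver and 4 of the 5 tested called lower. Of the Kupffer cell markers 2 of 6 were called higher, with sums of 2972 to 4147 and 4031 to 5360, and of the sinusoidal endothelial markers 3 of 5, with sums of 3058 to 3644 and 3553 to 5016. Of the stellate cell markers 2 of 5 were called lower, with sums of 4884 to 6201 and 4496 to 5477. All 4 erythroid markers were called lower, with sums of 7658 to 13563 and 4334 to 9832. With equal totals 6 of 6 Kupffer cell, 5 of 5 endothelial and 2 of 5 stellate cell markers were called higher, 1 hepatocyte marker higher and 1 lower, and 1 erythroid marker lower. The part of cell composition in the result was not tested.

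**Figure D3:**
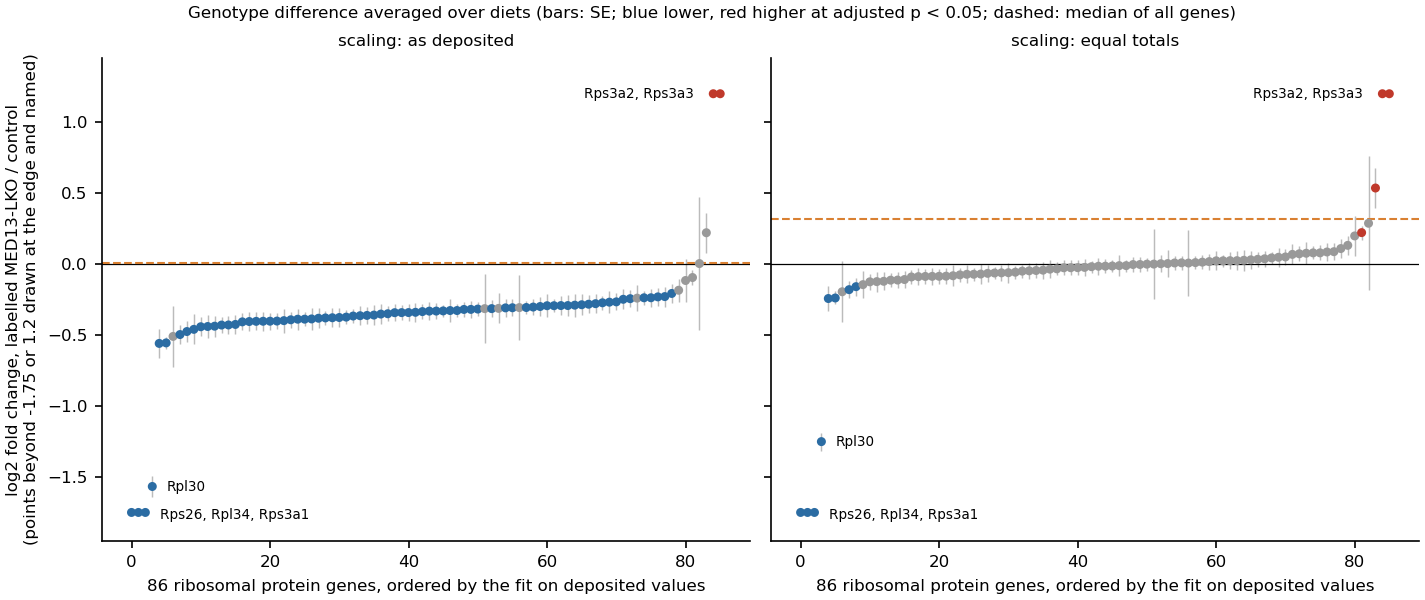
Log2 fold change of MED13-LKO-labelled liver against control, averaged over diets, with SE bars, for 86 ribosomal protein genes in the order of the fit on deposited values, on the deposited scaling at the left and with equal totals at the right. Blue points were called lower and red points higher, and the dashed line is the median of all genes tested, which moves from 0.01 to 0.32 and leaves most ribosomal protein genes uncalled around 0 at the right.

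Among the structural parts of the ribosome, the stalk proteins of the large subunit, which recruit translation factors, were each lower on the deposited scaling. Rplp0 was 9114 and 9906 in fasted control liver, 8458 and 8687 with sucrose, and 9647 and 7708 with fructose, and 7132 and 7981, 6423 and 6882, and 7141 and 7912 in MED13-LKO-labelled liver. The ranges overlap only through the lower fructose control mouse, and the log2 fold change was -0.30 (SE 0.0648, adjusted p = 0.008063). Rplp1 (-0.39) did not overlap between the genotypes, whereas Rplp2 (-0.21) did. Rpl3, which lines the peptidyl transferase centre, had a log2 fold change of -0.23 (SE 0.070, adjusted p = 0.03762), Rpl10, which joins late in assembly, one of -0.35 (SE 0.0684, adjusted p = 0.00477), and Rpl7 one of -0.31 (SE 0.0594, adjusted p = 0.004601). Rpl22 (-0.28) and Rpl39 (-0.27) were called lower too. With equal totals, none of these 8 genes of the large subunit was called, and the signs of Rplp0, Rplp2, Rpl3, Rpl22, Rpl39 and Rpl7 turned.

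In the small subunit, Rps6, the substrate of the S6 kinases, had 8373 and 8388 in fasted control, 7255 and 7748 with sucrose, and 8181 and 7077 with fructose. The libraries labelled MED13-LKO had 6296 and 6477, 5453 and 6019, and 5991 and 5881. No mouse overlapped, and the log2 fold change was -0.38 (SE 0.0496, adjusted p = 0.0005183). Rps2, which lines the entry of the mRNA channel, had after Rps7 the lowest log2 fold change of the genes outside the 4 families, -0.56 (SE 0.0436, adjusted p = 2.122e-05). Its values of 9520 to 10806 in control and 6508 to 7282 in MED13-LKO-labelled liver did not overlap, and it was called lower with equal totals as well (-0.24). Rps7 overlapped between the genotypes and differed most with sucrose, at 3454 and 3588 in control and 1452 and 1844 in MED13-LKO-labelled liver. Its fasted values were 3722 and 4083 against 2937 and 3122, and its fructose values 4366 and 2860 against 3140 and 2978. Rpsa (-0.29) and Rps4x (-0.34), the latter encoded on the X chromosome, were called lower on the deposited scaling, with overlapping ranges, and with equal totals neither was called and the sign of Rpsa turned. The calls of Rplp2, Rpl3, Rpl39 and Rpsa were kept in 4, 3, 5 and 7 of the 12 fits that left out 1 mouse.

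Several ribosomal proteins have a paralogous gene. Rpl22l1, the paralogue of Rpl22, was 84.1 to 168 in control and 111 to 130 in MED13-LKO-labelled liver and was not called (log2 fold change -0.12, SE 0.15, adjusted p = 0.619). Rps27l, which arose from Rps27, had a log2 fold change of -0.24 (SE 0.0506, adjusted p = 0.007418), and Rps27 one of -0.18 (SE 0.0799, adjusted p = 0.123). Rps27rt (-0.31, adjusted p = 0.364) was not called either, nor was Rps4l (0.22, adjusted p = 0.292), which is annotated as a pseudogene. With equal totals Rps4l was called higher (0.54, adjusted p = 0.008048), as it was without fasted mouse 2 labelled MED13-LKO (0.37, adjusted p = 0.02711), whereas Rpl22l1, Rps27, Rps27l and Rps27rt had positive log2 fold changes and were not called. Rpl3l, the form of Rpl3 in muscle, was at 0 to 8.02 and Rpl10l, the form of Rpl10 in testis, at 0 to 3.94, both under the level tested. Differences between the changes of such partners were not tested.

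Levels were also set per length, as normalized counts of a gene per kilobase of a single coding transcript. The transcript was the one with the longest coding sequence, taken at its full length. It had 3706 bases for Rps20, 2045 for Rpl5 and 1242 for Rpl12. The levels and their order depend on this choice. Over the 84 coding genes, the median of the control medians was 5000 per kilobase, with quartiles at 3107 and 6886. Rplp1 and Rpl41 stood highest, at 13100 and 11530 per kilobase. Far under the lower quartile stood, among others, Rps12 at 33.2, Rpl12 at 171, Rpl5 at 243 and Rps25 at 439 per kilobase. These genes were picked after their levels were seen. Processed copies outside the name rule held the larger values for some of them in both genotypes. Gm15500, identical to Rpl5 over 894 coding positions, had normalized counts of 5554 to 7593 in control and 4751 to 5789 in MED13-LKO-labelled liver, against 369 to 602 and 353 to 433 for Rpl5. Gm10275, identical to Rpl12 over 498 positions, had 3048 to 4299 and 2478 to 3070, against 144 to 336 and 120 to 244 for Rpl12. With such rows added, the log2 fold changes were -0.35 (SE 0.069, adjusted p = 0.005249) for Rpl5 and -0.46 (SE 0.0878, adjusted p = 0.004462) for Rpl12, of which neither gene had been called alone (adjusted p = 0.0556 and 0.117). In all, 86 rows of the table shared at least 50% of their subsequences of 31 bases with a ribosomal protein gene, and 49 of them were not members by name. With all of these summed and the diets averaged, 0 families were called higher and 76 lower on the deposited scaling. The share of all rows called was not computed for these sums. In the table with named copies summed it was 12.1% higher and 13.2% lower.

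Within each diet fewer genes were called, each comparison resting on 2 mice against 2. In fasted liver 33 genes were called lower and 2 higher, where 4.86% of all genes tested were called lower and 4.12% higher. With sucrose the counts were 25 lower and 2 higher (3.33% and 2.7% of all genes), and with fructose 14 lower and 2 higher (3.95% and 3.74%). The higher genes were Rps3a2 and Rps3a3 throughout. With named copies summed into their genes, 34, 24 and 12 sums were lower in fasted, sucrose and fructose liver (4.85%, 3.31% and 3.92% of all rows of that table) and 2, 3 and 2 higher (4.1%, 2.69% and 3.72%). With equal totals 5, 6 and 4 genes were lower in fasted, sucrose and fructose liver, where 1.88%, 1.37% and 1.83% of all genes were, and 2, 3 and 2 were higher, where 31.6%, 16.7% and 26.1% were. On the deposited scaling the medians of the ribosomal protein genes were -0.37, -0.37 and -0.28 in fasted, sucrose and fructose liver. Fructose control mouse 2 had the lowest ribosomal protein total of the control mice, 276099 against 301014 to 345216 in the others, and without it 47 genes were called lower with fructose. The fasted count fell to between 5 and 7 without any single mouse of the fasted groups and the sucrose count to between 5 and 9 without any single mouse of the sucrose groups. Without either fructose control mouse the counts were 58 in fasted and 51 in sucrose liver, as all groups share 1 estimate of the spread, and without either fasted control mouse they were 14 with sucrose and 8 with fructose. The fructose count was 5 without fructose control mouse 1 or without either fructose mouse labelled MED13-LKO. For the fits without a mouse, the share of all genes called was not computed. Whether these counts moved apart from those of all genes was thus not tested.

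Few ribosomal protein genes were called with feeding, as few as among all genes or fewer, in comparisons of 2 mice against 2. Rpl7l1, a paralogue of Rpl7, was called higher with both sugars in both genotypes. Its values in control were 1146 and 1131 (fasted), 1450 and 1556 (sucrose) and 1647 and 1442 (fructose). In MED13-LKO-labelled liver they were 1035 and 1043, 1429 and 1466, and 1360 and 1520. Every fed mouse lay above every fasted mouse of its genotype. The log2 fold changes were 0.40 (SE 0.0898, adjusted p = 0.02419) with sucrose and 0.44 (SE 0.0898, adjusted p = 0.0237) with fructose in control, and 0.48 (SE 0.0898, adjusted p = 0.01461) and 0.47 (SE 0.0898, adjusted p = 0.01708) in MED13-LKO-labelled liver. No other of the 86 ribosomal protein genes was called higher with feeding. Of all genes tested, 4.85% and 2.79% were called higher with sucrose and fructose in control, and 2.23% and 2.94% in MED13-LKO-labelled liver. The calls for Rpl7l1 were lost without any single mouse of the compared groups, except fructose control mouse 2 and fructose mouse 1 labelled MED13-LKO in their own comparisons, at adjusted p up to 0.155, and with fructose in fits of only the compared groups (adjusted p = 0.156 and 0.0571), while the log2 fold changes stayed between 0.34 and 0.55.

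The ribosomal protein genes called lower with feeding were Rps20 and Rps3a2 with sucrose in control and Rps7 with sucrose in MED13-LKO-labelled liver. Of all genes tested, 3.72% and 2.81% were called lower with sucrose and fructose in control, and 3.48% and 3.58% in MED13-LKO-labelled liver. Rps20 went from 3005 and 3055 in fasted control to 2257 and 2266 (log2 fold change -0.42, SE 0.108, adjusted p = 0.04024). Rps7 went from 2937 and 3122 in the fasted libraries labelled MED13-LKO to 1452 and 1844 with sucrose (log2 fold change -0.89, SE 0.173, adjusted p = 0.01731). With fructose it was 3140 and 2978, and in control it ranged from 2860 to 4366 over the diets, so the sucrose mice labelled MED13-LKO stood under all the others. Rps3a2 was called at the low control level given above (-1.74, adjusted p = 0.04355), but without sucrose control mouse 2 its log2 fold change was -0.81 (adjusted p = 0.09328), and the call was also lost with a pseudocount of 0.1, without the filter, with equal totals, with the replicate block (adjusted p = 0.05155) and in a fit of only the compared groups. The Rps20 call was lost with equal totals (adjusted p = 0.0934) and with the replicate block (adjusted p = 0.05562). The calls of Rps20 and Rps3a2 were kept in 4 and 3 of the 12 fits that left out 1 mouse. The Rps7 call was lost without either fasted mouse labelled MED13-LKO or without sucrose mouse 1 labelled MED13-LKO, where the log2 fold change lay between -0.71 and -0.93.

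The medians of the ribosomal protein genes were -0.15 and -0.15 with sucrose and fructose in control, and -0.11 and -0.05 in MED13-LKO-labelled liver, with 81 and 79 of 86 genes under 0 in control and 80 and 70 in MED13-LKO-labelled liver. Over all genes 51.9% and 51.3% were under 0 in control and 49.3% and 50.6% in MED13-LKO-labelled liver. With equal totals the medians were -0.02, -0.02, -0.04 and 0.06, and 49, 57, 64 and 20 of the 86 genes were under 0, against 35.8%, 35.2%, 40.0% and 36.9% of all genes. Among copies, Rpl10a-ps1 went from 1603 and 1580 in fasted control to 1023 and 1139 with sucrose (log2 fold change -0.56, adjusted p = 0.01558) and to 966 and 890 with fructose (-0.78, adjusted p = 0.005352), and ranged from 889 to 1085 in MED13-LKO-labelled liver. The sucrose call was lost without either fasted control mouse or sucrose control mouse 1 (adjusted p = 0.07696, 0.08846 and 0.108), and the fructose call in a fit of only the compared groups (adjusted p = 0.06166). Rps12-ps24 was 8.88 and 16.8 in fasted control and listed at 0 in both sucrose control mice. In MED13-LKO-labelled liver it was 7.27 and 5.66 when fasted and 40.0 and 49.9 with sucrose, the only libraries through which it reached the level for testing, so its fits are not given.

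**Figure D4:**
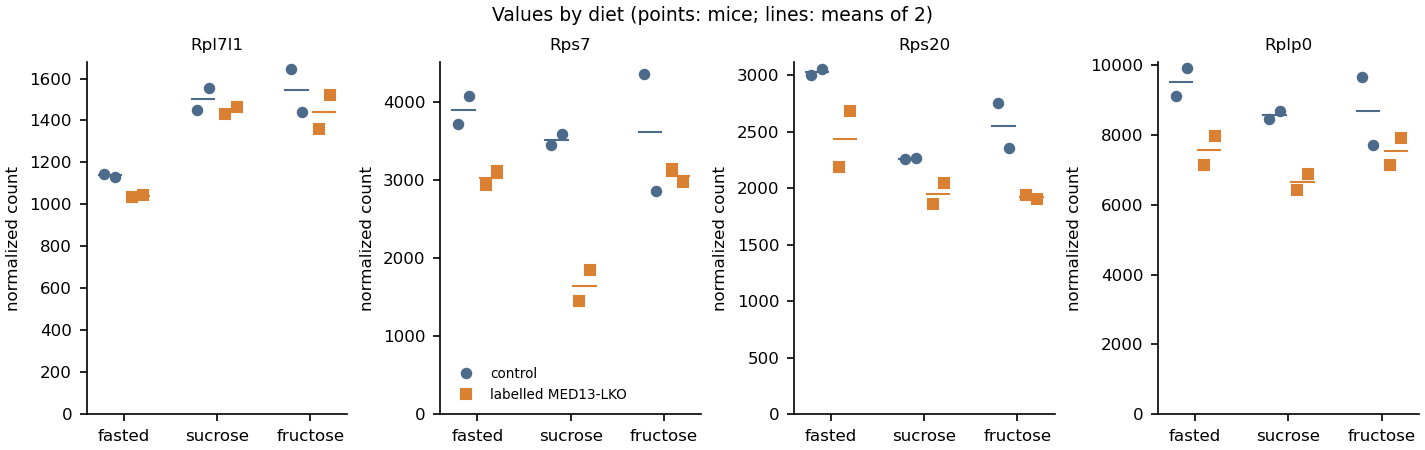
Normalized counts (vertical axes, from 0) of Rpl7l1, Rps7, Rps20 and Rplp0 by diet, with points for single mice and lines for the means of 2, control as blue circles and mice labelled MED13-LKO as orange squares. Rpl7l1 stands above the fasted mice in every fed mouse, and Rps7 is lowest in the sucrose mice labelled MED13-LKO, at 1452 and 1844.

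Between fructose and sucrose, averaged over the genotypes, limma called 0 of 86 ribosomal protein genes and 0 of 13 copies. Of all genes tested, 0.00809% were called higher and 0.0323% lower. An unadjusted p under 0.05 was found for 2 of the 86 genes and 0 of the 13 copies, and for 1172 of all 12366 genes tested. A difference of the feeding response between the genotypes was likewise called for 0 genes and 0 copies, where 0.0323% of all genes were called higher and 0.00809% lower. Here 1 of the 86 genes and 3 of the 13 copies had an unadjusted p under 0.05, as had 1173 of all 12366 genes.

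Other parts of the translation machinery were read from fixed lists. Fau, which encodes a ribosomal protein fused to a ubiquitin-like protein, and Rack1, a scaffold on the small subunit, were called lower averaged over the diets, at log2 fold changes of -0.36 and -0.32. Of 20 elongation and initiation factors and other genes known for 5′ terminal oligopyrimidine messengers, 16 were called lower and 0 higher, with a median of -0.22. Eef1a1, the main elongation factor, was at -0.32 (SE 0.0558, adjusted p = 0.002461) and Eef2 at -0.15 (SE 0.0458, adjusted p = 0.04013). Of 77 mitochondrial ribosomal protein genes, which are not part of the cytosolic ribosome, 15 were called lower and 1 higher, with a median of -0.12. The background is that given above for this comparison, 13.2% lower and 12.1% higher. With equal totals, Fau and Rack1 were not called, 7 of the 20 translation genes were called higher and 1 lower (median 0.09), and 45 of the 77 mitochondrial genes higher and 1 lower (median 0.19), where 57.5% of all genes were higher and 3.27% lower and the median was 0.32. The higher counts were thus near the share over all genes for the mitochondrial list and under it for the translation list.

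The starts of the coding genes were read from RefSeq promoter sequences on GRCm38.p6, which were found for 64 of the 84. A run of at least 5 bases that are C or T and that covers the annotated start was present in 19 of them, or 29.7%, and in 9.95% of 27025 promoters of all genes. For Rps6, shown for its long run, the 30 bases around the start lie at chr4:86857353-86857382 on the minus strand, with the run in capitals.
Rps6: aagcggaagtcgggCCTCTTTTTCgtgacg
For Rps26 the annotated start base is not a pyrimidine, in the window at chr10:128626492-128626521 on the minus strand.
Rps26: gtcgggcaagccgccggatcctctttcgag
The count depends on the annotated start, and the absence of a run says only that these letters do not cover that base.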

How the data were processed

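Liver libraries of 12 mice were grouped by genotype and diet from the sample titles. The authors deposited signal values, namely normalized counts per Ensembl gene. According to the submitters' processing notes, reads were trimmed with Trim Galore 0.6.5, counted with kallisto 0.46.0 and handled with DESeq2 1.24.0, with mm10 as the build. Kallisto divides a read among the transcripts it fits, so near-identical copies can trade reads. Of the identifiers, 16212 of 16346 matched GENCODE M21. The log2 of the normalized count plus 1 was modelled with limma 3.58.1 (R 4.3.3) with trend, for 12366 genes with a mean of at least 10, with 6 groups in 1 fit and Benjamini-Hochberg adjustment over all genes tested. Genes with an adjusted p under 0.05 are called. Fold changes of low genes are understated on this scale. On simulated data the fit recovered 85% of genes changed by 1 on the log2 scale for the genotypes averaged over diets. Of its calls there, 9.09% were false. Within fasted liver it recovered 61%, with 2.4% of calls false. Smaller changes, such as the median of -0.33 of the ribosomal protein genes, were not simulated, so their recovery is not known. P-values measure only the spread between these mice.

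The genes named were families whose gene and copy were called in opposite directions, the 6 largest called genes and copies in each direction for the genotypes, the 5 largest for feeding, the 5 largest sums, and a fixed set of stalk, paralogous and well known proteins. Members and lists were chosen with earlier results of these data known. Copies were also found by sharing at least 50% of their subsequences of 31 bases with a ribosomal protein gene, and aligned to the coding sequence with Biopython 1.88. Figures used matplotlib 3.10.9. Same-numbered mice did not deviate together, so the reported fits have no block. Other settings tried were a pseudocount of 0.1 or 10, dropping the filter, equal 75th percentiles, equal totals, the replicate number as a block, only the compared groups, leaving out each mouse, and other ways to assign copies. Some genes of the lists are not reported here.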

Additional observations from a re-analysis of the deposited data

How the results depend on the processing

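Averaged over the diets, the calls of Rps26, Rpl34, Rps3a1, Rpl30, Rps7, Rps2, Rps3a2, Rps3a3, Rps26-ps1, Rpl34-ps1 and Rpl28-ps1 were kept under each alternative fitted, whereas the lower counts of most other genes depended on the scaling. Of these, Rps3a3, Rps26-ps1 and Rpl34-ps1 were tested only because of their MED13-LKO-labelled values, so their calls add nothing to the values given. Rps7 was lowest in the sucrose mice labelled MED13-LKO. With equal totals, 4 genes were called higher and 8 lower, 1 copy lower, and 5 family sums higher and 7 lower, where 57.5% of all genes were higher and 3.27% lower. Within diets equal totals left 5 genes, 1 copy and 5 sums lower in fasted liver, 6 genes, 0 copies and 6 sums with sucrose, 4 genes, 0 copies and 4 sums with fructose (1.88%, 1.37% and 1.83% of all genes), and 0 genes lower for sucrose against fasted control (2.22%). The log2 fold changes that turned positive with equal totals were Rpl10-ps3 0.0694, Rpl10a-ps1 0.0853, Rplp0 0.0174, Rplp2 0.109, Rpsa 0.0268, Rpl3 0.0873, Rpl22 0.0372, Rpl22l1 0.198, Rpl39 0.0478, Rps27 0.132, Rps27l 0.0788, Rps27rt 0.00714, Rpl7 0.00862 and Rpl7l1 0.222, since this scaling moves every gene upward in MED13-LKO-labelled liver. Equal 75th percentiles changed the counts little.

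Without the filter on low values, 9 copies were called higher averaged over the diets, 9 with sucrose and 3 for sucrose against fasted MED13-LKO-labelled liver. That fit also took in the copies with a mean under 10. For the fits in this paragraph, the share of all rows called is not given. Lower genes for sucrose against fasted control numbered 1 without the filter and 1 with a pseudocount of 0.1, which also left 0 copies higher for sucrose against fasted MED13-LKO-labelled liver. A pseudocount of 10 gave 1 lower gene for fructose against fasted control. With copies assigned by sequence, or with Rps3a2 and Rps3a3 counted as copies, 0 sums were higher averaged over diets, 0 fasted, 1 with sucrose and 0 with fructose. Fits of only the compared groups called 4 genes, 0 copies and 4 sums lower with fructose, 1 gene and 1 copy lower for sucrose against fasted control, 0 genes higher and 0 copies lower for fructose against fasted control, and 0 genes higher for fructose against fasted MED13-LKO-labelled liver. With the replicate block, 22 sums were lower when fasted, 9 genes with fructose, and 0 genes for sucrose against fasted control, and the genotype calls of Rplp2 and Rpl3 were lost (adjusted p = 0.0544 and 0.0527). It moved no other count by over 1.5 times. Same-numbered mice correlated in their deviations at -0.142 to 0.0782 over 15 pairs of groups, so the numbers did not pair them.

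Leaving out each mouse in turn gave, averaged over diets, 64 to 78 genes, 1 to 6 copies and 65 to 78 sums lower and 2 to 3 genes higher. It gave 5 to 58 genes, 1 to 3 copies and 5 to 61 sums lower in fasted liver, 5 to 51 genes, 0 to 1 copies and 5 to 52 sums with sucrose, and 5 to 47 genes, 0 to 1 copies and 5 to 48 sums with fructose. For sucrose against fasted control it gave 0 to 1 genes higher, 0 to 2 genes lower and 1 to 2 copies lower. For fructose against fasted control it gave 0 to 1 genes higher, 0 to 1 lower and 1 to 2 copies lower. In MED13-LKO-labelled liver sucrose gave 0 to 1 genes higher, 0 to 1 lower and 0 to 1 copies higher, and fructose 0 to 1 genes higher. Fructose against sucrose gave 0 to 1 genes higher. No share over all genes was computed for these fits. The log2 fold change of Rpl22l1 lay between -0.269 and 0.0369. The cause of these changes was not tested. With 2 mice a group, differences of the size seen for most ribosomal protein genes could be called within single diets for some genes only.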
